A study of Mus musculus with 8 samples.

Results

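The interferon response and antigen presentation genes are a set of 38 genes that vertebrate cells switch on when they sense foreign nucleic acid or receive interferon. They were chosen by name, with earlier results of these data known, and matched by mouse Entrez gene ID to the rows of the deposited value table. The matching itself used no measured value. All 38 were found among the 24235 genes of the array, and all 38 passed the filter on dim genes and were well above background on 8 of 8 arrays. The cells were primary ovarian follicular cells, mostly granulosa cells, of preantral follicles, taken from pools of 5 Swiss mice aged 8 weeks and grown for 9 days. They received 12 pmol of a control siRNA pool or of a siRNA pool against Foxl2 for 24 h, and 100 nM estradiol (E2) or vehicle for 10 h before lysis. The labels and the study's text differ on whether these 10 h fell within or after the 24 h. Each siRNA was combined with vehicle or hormone, which gave 4 groups of 2 cultures from different animals. The serum of the medium was charcoal-treated, and androstenedione was left out. Every well, controls included, also received lipid reagent and 200 ng of a reporter plasmid. No untransfected array was analysed here, so the arrays compare the siRNA pools and the hormone, and a response shared by all transfected cells cannot be seen in them.

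Double-stranded RNA in the cytosol is sensed by helicases such as MDA5 (Ifih1) and by the kinase PKR (Eif2ak2), and signalling through them leads to secretion of type I interferon. Interferon receptors then activate a complex that holds STAT2 and IRF9 and binds the interferon-stimulated response element (ISRE) in the promoters of target genes. The products block viral RNA and protein synthesis, modify proteins with ISG15, and load peptides on MHC class I molecules. Synthetic siRNA can engage some of the cell's nucleic acid sensors, which makes these genes a usual check on siRNA experiments.

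RefSeq promoter sequences (GRCm38.p6, 250 bases before to 50 after the annotated start) were at hand for 29 of the 38 members. An ISRE core, spelled as GAAA, then 2 bases of any kind, then GAAA, and searched on both strands, lay in the promoters of 14 of these 29 members (48.3%), against 3.99% of 27025 genes in the same table and 3.44% of 32851 windows of the same length. The 7 windows below belong to the members that carried the core and also passed the test of the siRNA difference once the slide row was taken into account, as described further on. They belong to 7 of the 10 members with the largest siRNA differences. The core also lay in promoters of Ifih1, Eif2ak2, Oas1a, Oas3, Bst2, Gbp3 and B2m, which did not pass that test. The windows shown were thus picked by outcome and give no link between the core and the siRNA difference. Each runs 5′ to 3′ on the gene's strand, and capitals mark the core, which reads TTTC, 2 bases, TTTC where it lies on the other strand. A match describes the letters of the window and not a bound site.
Isg15, chr4:156200850-156200921, minus strand: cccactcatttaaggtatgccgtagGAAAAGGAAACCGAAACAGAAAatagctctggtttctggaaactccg
Ifit1, chr19:34640760-34640838, plus strand: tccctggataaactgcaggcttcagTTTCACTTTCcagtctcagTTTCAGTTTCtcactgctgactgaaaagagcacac
Ifit3, chr19:34583348-34583441, plus strand: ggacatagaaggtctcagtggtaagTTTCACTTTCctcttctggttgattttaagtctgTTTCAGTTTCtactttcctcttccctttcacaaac
Stat2, chr10:128270251-128270310, plus strand: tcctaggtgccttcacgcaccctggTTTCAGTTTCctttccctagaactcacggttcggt
Rsad2, chr12:26456538-26456597, minus strand: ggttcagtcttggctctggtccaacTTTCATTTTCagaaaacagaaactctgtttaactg
Gbp2, chr3:142620579-142620638, plus strand: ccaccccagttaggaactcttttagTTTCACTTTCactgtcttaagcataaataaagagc
Cxcl10, chr5:92349068-92349127, minus strand: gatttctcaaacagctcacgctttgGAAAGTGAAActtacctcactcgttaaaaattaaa
The Isg15 promoter held 3 overlapping cores, from 78 to 66 bases before the start, and the Ifit1 and Ifit3 promoters held 2 each. The single core of Cxcl10 began 213 bases before the start, that of Stat2 222 bases and that of Gbp2 59 bases. No core was found in the windows of Ifit2, Irf9, Ifi44 or Xaf1, which passed the same test of the siRNA difference. Oas2, Mx1 and Ifi27 passed it too and had no window to search. The windows of Tap1, Psmb8 and Psmb9 also held no core.

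Each culture was measured on its own one-colour Agilent array, and levels are given as log2 of the signal after scaling each array to its 75th percentile. A level depends on the probe and is not compared between genes. The values of a gene are listed as pairs of replicate 1 and replicate 2, first for control siRNA plus vehicle, then control siRNA plus E2, FOXL2 siRNA plus vehicle and last FOXL2 siRNA plus E2. The 8 arrays shared 1 slide, with every replicate 1 in the first row of the slide and every replicate 2 in the second. Slide row and replicate number therefore cannot be told apart. In both rows the groups stood in the order just given, from slide column 1 to column 4. Slide column and group cannot be told apart either, with or without a block for the row. Foxl2, the siRNA target, was not lower on the arrays labelled FOXL2 siRNA: its levels were 13.46, 13.01, 12.94 and 12.76 on control siRNA arrays and 13.41, 13.39, 13.12 and 12.96 on the others. The difference, FOXL2 siRNA minus control siRNA, was 0.18 (SE 0.10, limma adjusted p = 0.334), so the arrays are called here by their labels. The Foxl2 level averages 2 probes. By qPCR on cultures of its knockdown experiment, the paper reports a strong loss of each targeted mRNA, Foxl2 included. Its list of FOXL2 targets holds Fst, Hsd17b1 and Cyp19a1, which are among the granulosa cell markers below. Of 10 granulosa cell markers, Amh and Fshr did not stand well above background anywhere, and 8 were tested for the mean siRNA difference. Fst fell by 2.02 (SE 0.13, limma adjusted p = 0.000228) and Hsd17b1 by 1.47 (SE 0.18, limma adjusted p = 0.00222), while the other 6 did not pass and lay between -0.75 (Cyp19a1) and 0.35 (Nr5a2). Of 12 macrophage and leukocyte markers, Ptprc, Lyz2, C1qa and Tyrobp did not either, and the summed level of the 12 was 11.63 and 11.29, 11.28 and 11.23, 11.41 and 11.54, and 11.47 and 11.19 in the order of groups just given. In cultures of mixed cells, fewer cells of a type and less RNA per cell cannot be told apart.

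Most members differed between the replicates of a group, in one direction. Replicate 1 lay above replicate 2 in all 4 groups for 33 of the 38 members (86.8%), against 17.2% of the 15637 genes tested. The median difference over the members was 0.53, 0.31, 0.43 and 0.25 in the 4 groups, while that over all genes stayed between -0.05 and 0.04. Mx1, a dynamin-like GTPase that blocks viral replication, showed it most. Its level was 9.59, 9.22, 9.87 and 9.63 on the replicate 1 arrays and 7.32, 7.29, 7.62 and 7.91 on the replicate 2 arrays. Every replicate 1 array thus lay above every replicate 2 array for Mx1. Ifi27, which encodes a mitochondrial protein, was the member that ran the other way in all 4 groups, at 14.37 to 14.77 on replicate 1 arrays and 14.83 to 15.11 on replicate 2 arrays. Trim25, Irf9, Tap1 and Tap2 had no common direction over the groups. The summed leukocyte markers were higher in replicate 1 in 3 of the groups and lower in the fourth, FOXL2 siRNA plus vehicle, and their part in the difference was not tested.

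**Figure D1:**
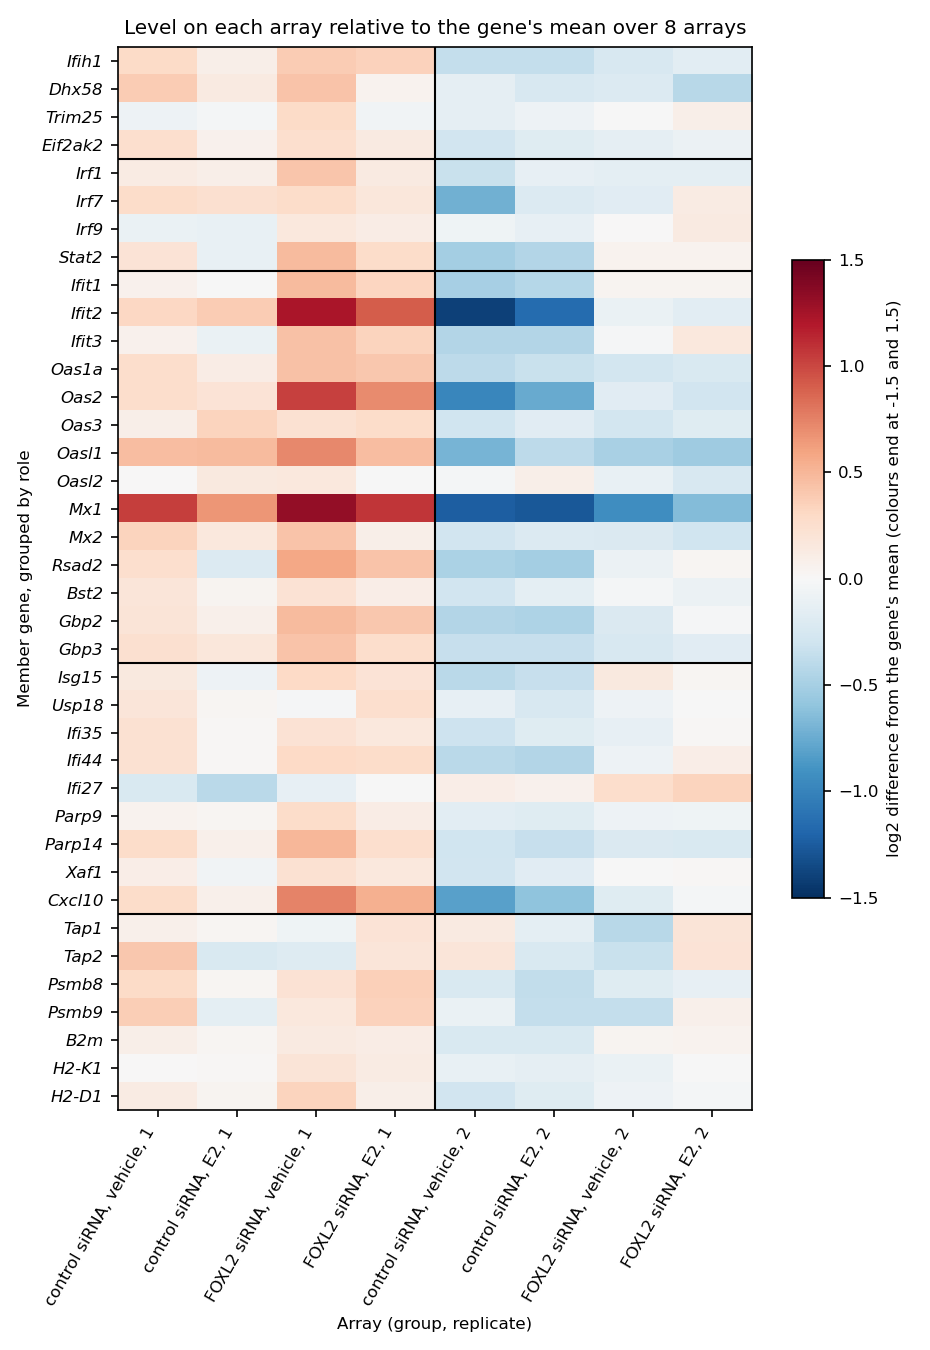
Heat map of the 38 members on 8 arrays, in rows grouped by role from top to bottom (sensors and adaptors, transcription factors, antiviral effectors, ISG15 system and other induced genes, antigen presentation), with columns ordered by replicate. Colour gives the log2 level minus the gene's mean over 8 arrays, and nearly all rows are redder in the replicate 1 columns, most of all Mx1, Ifit2 and Oas2.

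**Figure D2:**
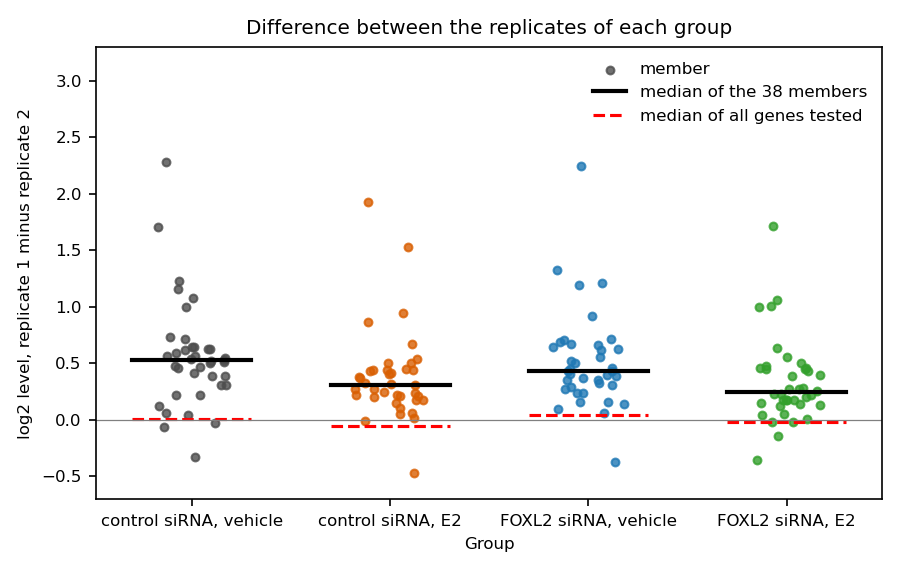
Replicate 1 minus replicate 2 in log2 level for each of the 38 members (points) in each of the 4 groups, with the median of the members (black line) and of all genes tested (red dashed line). The members' medians lie between 0.25 and 0.53, and those of all genes between -0.05 and 0.04.

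The mean SD within a group had a median of 0.28 over the members and of 0.13 over all genes tested, and the median SE of the siRNA difference was 0.16 for members and 0.11 for all genes.

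The first comparison asked whether the siRNA pools differed in these genes, averaged over vehicle and E2. In the mean of both treatments, 0 of 38 members passed the limma test at an adjusted p under 0.05, where 12.6% of all genes did. At an unadjusted p under 0.05 there were 5 members, and 26.8% of all genes. The members lay mostly on one side. The difference, FOXL2 siRNA minus control siRNA, was above 0 for 34 of 38 members, with a median of 0.15 and a range of -0.10 to 0.94, against a median of 0.00 over all genes. Within the first slide row it was above 0 for 34 members and within the second for 33, with a median of 0.16 in both, while the medians over all genes were 0.01 and -0.02. The tested genes of the theca and endothelial marker lists also lay above 0. Of 3 genes of the theca list on the array, Cyp11a1 rose by 0.89 (SE 0.06, limma adjusted p = 0.000196), Cyp17a1 differed by 0.62 (SE 0.22, limma adjusted p = 0.11) and Lhcgr was not well above background. Their summed level was 14.21 to 14.42 on control siRNA arrays and 15.13 to 15.21 on FOXL2 siRNA arrays. The paper states that follicular cells can luteinize in culture, and whether this list reads theca cells here was not tested. Of 5 endothelial markers, Cdh5, Tek and Emcn were not well above background, Kdr differed by 0.36 (SE 0.14, limma adjusted p = 0.141) and Pecam1 by 0.04, and their summed level was 10.11 to 10.83 and 10.64 to 10.93. Of the 8 leukocyte markers tested, 4 lay above 0 and 0 passed. The part of theca, endothelial or leukocyte cells in the members' difference was not tested. Leaving out 1 array leaves a group in a single row, and the members' median then moved between 0.01 (without replicate 2 of control siRNA plus vehicle) and 0.26 (without replicate 1 of it, or without replicate 2 of FOXL2 siRNA plus vehicle). Without replicate 1 of control siRNA plus vehicle, 3 members passed, Ifit3, Isg15 and Stat2, and 0 passed in the other 7 such fits.

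The antiviral effectors held the members with the largest differences. Ifit2, one of a family of proteins that bind foreign RNA and hold back its translation, stood at 10.86 and 9.15, 10.93 and 9.40, 11.78 and 10.45, and 11.46 and 10.40. Within each slide row both FOXL2 siRNA arrays were the higher ones, but the ranges over both rows overlapped. The difference was 0.94 (SE 0.52, 95% interval -0.27 to 2.14, limma adjusted p = 0.306), the largest among the members.

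Its relatives Ifit1 and Ifit3 had smaller differences with smaller errors. Ifit3 stood at 14.56 and 14.05, 14.39 and 14.06, 14.94 and 14.48, and 14.83 and 14.65. With E2 the FOXL2 siRNA arrays lay above the control arrays without overlap, as for 12 of 38 members and 23.3% of all genes. With vehicle they overlapped. The difference for Ifit3 was 0.46 (SE 0.15, 95% interval 0.11 to 0.81, limma adjusted p = 0.0893), and that for Ifit1 was 0.44 (SE 0.17, 95% interval 0.05 to 0.82, limma adjusted p = 0.136).

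Oas2 makes the short oligoadenylates that activate RNase L. Its levels were 12.88 and 11.64, 12.82 and 11.87, 13.64 and 12.45, and 13.33 and 12.33, so that each FOXL2 siRNA array exceeded the control arrays of its own row. The difference was 0.63 (SE 0.40, limma adjusted p = 0.371). Its paralogs Oas1a, Oas3, Oasl1 and Oasl2 had differences of 0.18, 0.02, 0.08 and -0.10, and Oasl2 was the member with the lowest value of all 38. These genes are similar in sequence, and how well each probe tells them apart was not tested.

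Rsad2 encodes viperin, an enzyme that makes a chain-terminating nucleotide. It stood at 14.24 and 13.51, 13.78 and 13.47, 14.56 and 13.89, and 14.41 and 14.01, with a difference of 0.47 (SE 0.21, limma adjusted p = 0.2). For Mx1 the difference was 0.40 with an SE of 0.74, so the gap between its replicates left a wide 95% interval of -1.33 to 2.13. Its paralog Mx2 had the smallest difference of any member, 0.00 (SE 0.20, limma adjusted p = 0.995). Gbp2 and Gbp3, guanylate-binding proteins, differed by 0.32 and 0.14, and Bst2, which tethers virions to the cell surface, by 0.10, and none of these passed.

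**Figure D3:**
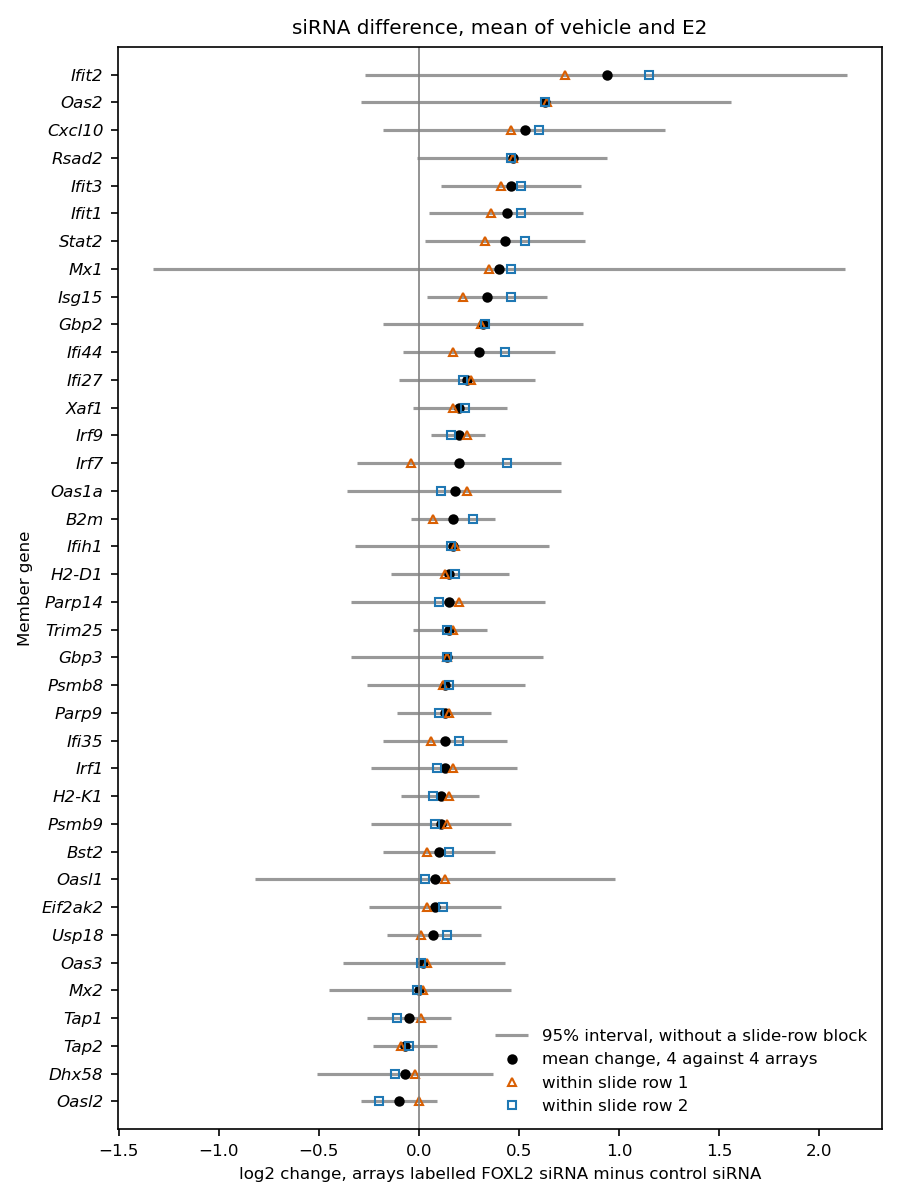
The siRNA difference in log2 level (arrays labelled FOXL2 siRNA minus control siRNA, mean of vehicle and E2) for each of the 38 members, sorted by size. Black points give the difference over 4 against 4 arrays, grey lines the 95% interval of the limma fit, and open symbols the differences within each slide row. Most intervals reach 0, and 34 of 38 black points lie above it.

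Among the transcription factors, Stat2 and Irf9, the partners in the ISRE-binding complex, behaved alike in direction and not in spread. Stat2 stood at 13.86 and 13.14, 13.54 and 13.22, 14.13 and 13.71, and 13.93 and 13.71, with a difference of 0.43 (SE 0.17, 95% interval 0.03 to 0.83, limma adjusted p = 0.156). Irf9 stood at 12.49 and 12.52, 12.48 and 12.46, 12.74 and 12.59, and 12.70 and 12.72. It was the only member whose 4 FOXL2 siRNA arrays all lay above the 4 control arrays, 1 of 38 where 10.1% of all genes did so in that direction. Its difference of 0.20 (SE 0.06, 95% interval 0.06 to 0.33) came nearest to the threshold, at a limma adjusted p of 0.0662. Irf7, which amplifies interferon production, and Irf1 differed by 0.20 (SE 0.22) and 0.13 (SE 0.16).

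The sensors and adaptors showed little. Ifih1 ranged from 10.70 to 11.44, Dhx58, which encodes the related helicase LGP2, from 10.42 to 11.26, and Eif2ak2 from 11.87 to 12.41. Their differences were 0.17, -0.07 and 0.08, with SEs of 0.21, 0.19 and 0.14. Trim25, a ubiquitin ligase that acts with the sensor RIG-I, differed by 0.15 (SE 0.08, limma adjusted p = 0.273), but its 2 probes did not match, with 0.01 for one and 0.39 for the other.

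The ISG15 group followed the effectors. Isg15 is a ubiquitin-like protein that is joined to other proteins during the response. It stood at 17.02 and 16.47, 16.80 and 16.53, 17.18 and 17.02, and 17.08 and 16.91. With E2 both FOXL2 siRNA arrays lay above both control arrays, as they did for 23.3% of all genes. With vehicle the lower FOXL2 siRNA array and the higher control array did not differ in the digits shown. The difference was 0.34 (SE 0.13, 95% interval 0.04 to 0.64, limma adjusted p = 0.133). The chemokine gene Cxcl10 stood at 13.07 and 11.99, 12.87 and 12.20, 13.54 and 12.62, and 13.33 and 12.77, with a difference of 0.53 (SE 0.30, limma adjusted p = 0.324), and its 2 probes gave the same 0.53. The remaining members of the group, Usp18 (which removes ISG15), Ifi35, Ifi44, Ifi27, Parp9, Parp14 and Xaf1, had differences of 0.07 to 0.30. All 9 genes of the group lay above 0 and 0 passed the test.

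**Figure D4:**
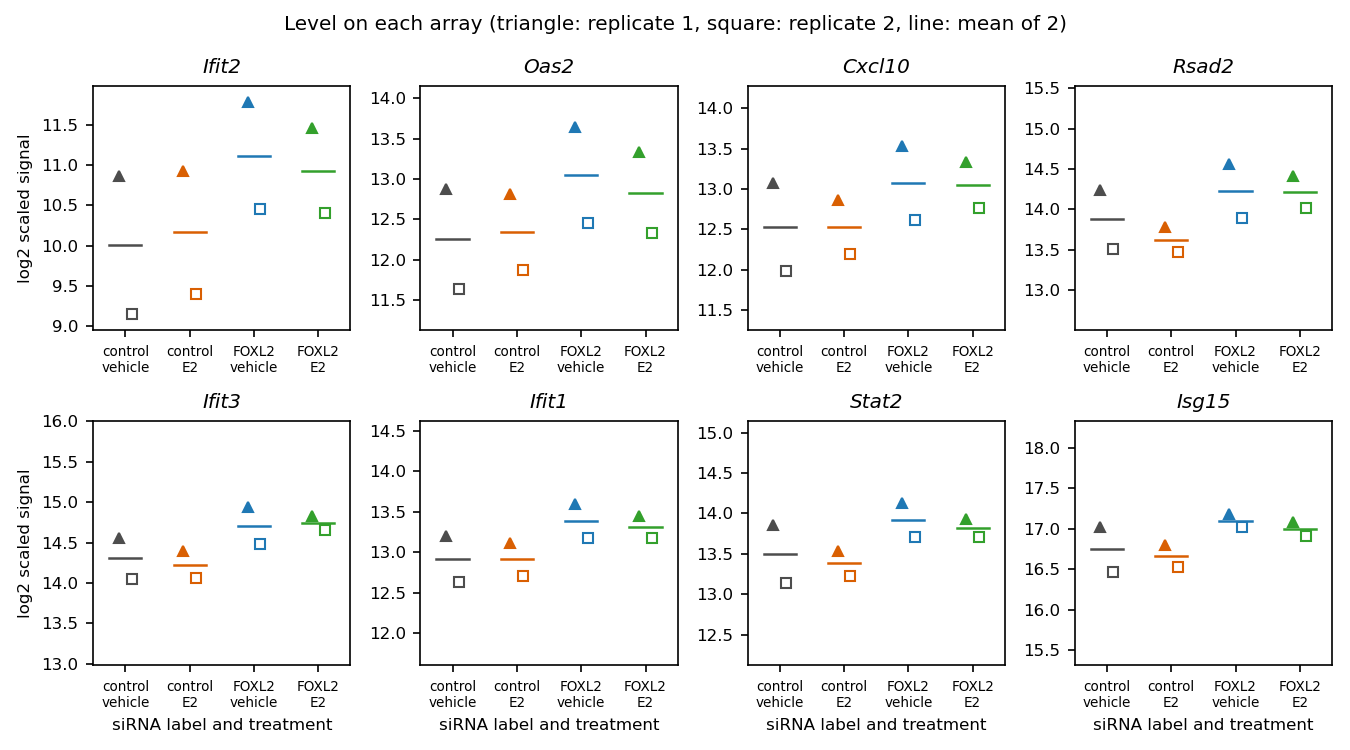
Log2 level on each array for 8 of the members with the largest siRNA differences, from the effectors, the transcription factors and the ISG15 group. Triangles are replicate 1, squares replicate 2 and lines the mean of 2, and each panel has its own origin with a common span. Within each replicate number the FOXL2 siRNA symbols of these 8 lie above the control symbols of the same treatment. Not all members did so, and Dhx58, Oas3, Oasl1, Oasl2 and Mx2, not shown, lay the other way with E2 in both replicates.

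Within each treatment, the siRNA difference had the same sign for most members. With vehicle it was above 0 for 32 of 38, with a median of 0.16, and 1 member passed (2.63%), Tap2, which was lower, where 6.57% of all genes passed and 2.94% were lower. Leaving out 1 array moved this median between -0.08 (without replicate 2 of control siRNA plus vehicle) and 0.41 (without replicate 1 of it), and it was also below 0, at -0.04, without replicate 1 of FOXL2 siRNA plus vehicle. With E2 it was above 0 for 33 of 38, with a median of 0.21, and 0 members passed where 4.39% of all genes did, with 3 members and 16.6% of all genes at an unadjusted p under 0.05. The median with E2 moved between 0.05 (without replicate 2 of control siRNA plus E2) and 0.36 (without replicate 1 of it). The members farthest from 0 among those that did not pass were Ifit2 in both, at 1.11 (SE 0.73, limma adjusted p = 0.48) with vehicle and 0.77 (SE 0.73, limma adjusted p = 0.69) with E2. Those nearest to 0 were Dhx58 with vehicle, at -0.01, and Irf1 with E2, at 0.01. The comparisons with vehicle and with E2 share no arrays.

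Because slide row and replicate number coincided, the same comparisons were also fitted with the row as a block. The estimates stay the same in that fit, and the difference between rows no longer counts as error. In the mean of both treatments 14 members then passed, all higher with FOXL2 siRNA, which is 36.8% of the members, against 27.7% of all genes in either direction and 14.2% in that direction. They were Ifit1, Ifit2, Ifit3, Oas2, Mx1, Rsad2, Gbp2, Stat2, Irf9, Isg15, Cxcl10, Ifi27, Ifi44 and Xaf1. Ifit2 then had an SE of 0.09 (limma adjusted p = 1.08e-05), Oas2 an SE of 0.06 (limma adjusted p = 1.4e-05) and Isg15 an SE of 0.07 (limma adjusted p = 0.00405). With vehicle 10 members passed (26.3%, where 18.8% of all genes did), 8 higher and 2 lower, where 10.5% and 8.31% of all genes were, and the lower ones were Tap1 and Tap2. With E2 14 passed (36.8%, where 14.9% did), all higher, where 7.51% of all genes were. The labels do not say whether cultures with the same number shared a mouse pool or a day, so both fits are given. The paper describes mouse pools per replicate and the subtraction of a median for each replicate. It does not state whether the 4 groups of a replicate came from the same pool.

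Among the antigen presentation genes, Tap2 passed with vehicle. Tap1 and Tap2 together encode the transporter that carries peptides into the endoplasmic reticulum, Psmb8 and Psmb9 are catalytic subunits of the immunoproteasome that makes the peptides, and these genes follow each other in the MHC. Tap2 stood at 14.86 and 14.64, 14.22 and 14.23, 14.26 and 14.12, and 14.64 and 14.66. The arrays with only one of FOXL2 siRNA and E2 were the low ones, and no array of these lay within the range of the other groups. The low arrays were also those of the inner slide columns, 2 and 3, and a part of position was not tested. With vehicle Tap2 was lower with FOXL2 siRNA, by -0.56 (SE 0.10, 95% interval -0.79 to -0.34, limma adjusted p = 0.0159). With E2 it stood 0.42 higher (SE 0.10, 95% interval 0.20 to 0.64), just outside the threshold at a limma adjusted p of 0.0568. Without replicate 1 or without replicate 2 of control siRNA plus vehicle, this difference passed (limma adjusted p = 0.0383 and 0.0388), but it did not in the other 6 such fits, where the adjusted p reached 0.267.

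The difference between the E2 effects with the siRNA pools was tested directly. Here 1 of 38 members passed, where 0.243% of all genes did. It was Tap2, with a difference of 0.98 (SE 0.14, 95% interval 0.66 to 1.30, limma adjusted p = 0.0487), and 1.01 and 0.95 within the slide rows. The call did not hold in any of the 8 fits that left out 1 array, where the adjusted p reached 0.241. Tap2 rested on 1 probe. Tap2 with vehicle was called in 6 of 8 such fits, and was lost without replicate 1 of control siRNA with vehicle or replicate 2 of FOXL2 siRNA with vehicle, with the adjusted p reaching 0.113.

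Its neighbours had the same sign in this difference. Tap1 stood at 10.81 and 10.87, 10.76 and 10.58, 10.66 and 10.31, and 10.93 and 10.92, and its difference between E2 effects was 0.61 (SE 0.18, 95% interval 0.19 to 1.03, limma adjusted p = 0.601). Psmb9 stood at 12.71 and 12.24, 12.19 and 11.98, 12.50 and 11.98, and 12.68 and 12.41, with a difference of 0.69 (SE 0.30, limma adjusted p = 1), the largest among the members that did not pass. Psmb8 had 0.30 (SE 0.34). With the row as a block, Psmb9 passed beside Tap2 (limma adjusted p = 0.0169), so that 2 of 38 members did, where 2.12% of all genes did. The member nearest to 0 was Xaf1, at -0.01 (SE 0.20).

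**Figure D5:**
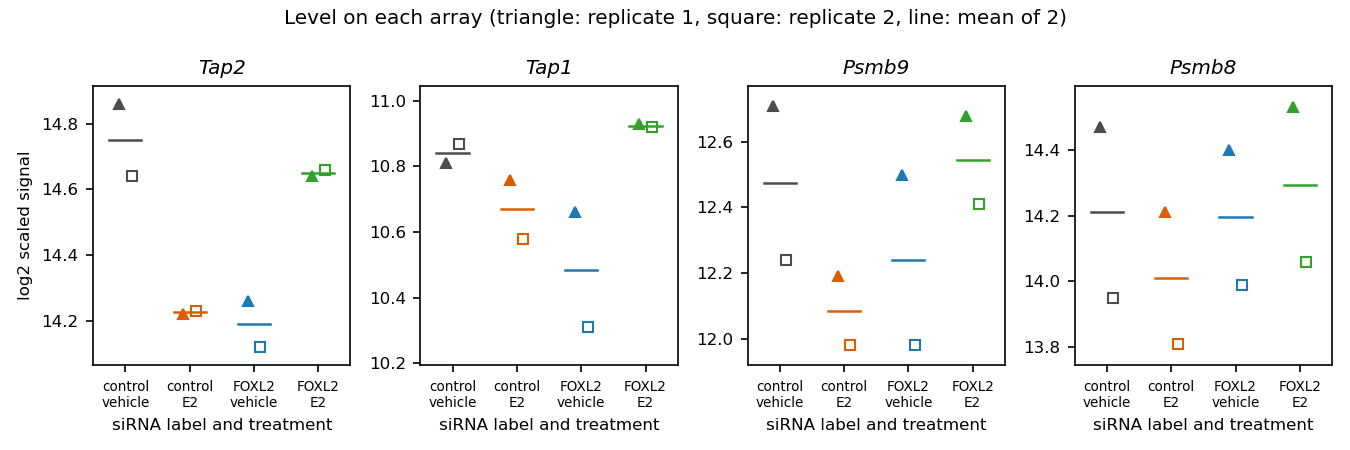
Log2 level of the transporter and immunoproteasome genes on each array by siRNA label and treatment. Triangles are replicate 1, squares replicate 2 and lines the mean of 2. Tap2 lies at 14.12 to 14.26 in the middle groups and at 14.64 to 14.86 in the outer ones, and the middle means of Tap1 and Psmb9 are also the lower ones, while the Psmb8 means of vehicle with either siRNA lie close together.

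The class I molecules themselves varied little. B2m, the light chain, ranged from 16.49 to 16.85, and the heavy chains H2-K1 and H2-D1 ranged from 15.87 to 16.19 and from 15.60 to 16.22. In the mean of both treatments the siRNA differences were 0.17 (SE 0.09), 0.11 (SE 0.08) and 0.15 (SE 0.13), and none passed. Class I heavy chain genes are near-identical over long stretches, so probes of H2-K1 and H2-D1 may read each other's RNA.

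The last comparison took E2 against vehicle. With control siRNA, 0 of 38 members passed, where 0.0192% of all genes did, and 1 had an unadjusted p under 0.05, as 4.58% of all genes had. The median difference, E2 minus vehicle, was -0.04, with a range of -0.52 to 0.24. With FOXL2 siRNA, 0 passed, where 0.0128% of all genes did, and 2 had an unadjusted p under 0.05, as 3.06% of all genes had. The median was -0.02, with a range of -0.29 to 0.46. The member farthest from 0 was Tap2 in both, at -0.52 (SE 0.10, limma adjusted p = 0.272) with control siRNA and 0.46 (SE 0.10, limma adjusted p = 0.519) with FOXL2 siRNA, and with the row as a block Tap2 was the only member to pass in either, where 1.16% and 0.614% of all genes passed. Those nearest to 0 were Bst2 with control siRNA and B2m with FOXL2 siRNA, both at 0.00. Within slide rows the median with control siRNA was -0.15 in the first and 0.03 in the second, and with FOXL2 siRNA -0.11 and 0.06, so the rows differed in sign. The medians moved from -0.33 (without replicate 2 of control siRNA plus vehicle) to 0.21 (without replicate 1 of it) with control siRNA, and from -0.26 (without replicate 2 of FOXL2 siRNA plus vehicle) to 0.22 (without replicate 1 of it) with FOXL2 siRNA. The effectors with the larger siRNA differences did not pass for E2, as Ifit3 had -0.08 (95% interval -0.57 to 0.41) with control siRNA and 0.03 (95% interval -0.46 to 0.52) with FOXL2 siRNA. The study's own rule for E2 targets asks that E2 and vehicle differ by 1 or more log2 units and by over 2 times the sum of both SDs. With either siRNA 0 members met it, where 0.454% and 0.217% of all genes did. These shares are of the genes tested here and stand for 71 and 34 genes, more than the E2 targets counted in the paper. The rule was applied here without the paper's subtraction of a median for each replicate, and the counts are not like for like.

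Of 79 further genes of the pathway, 78 were matched to the array and 72 were tested. In the mean siRNA difference 1 of these passed (1.39%), where 12.6% of all genes did. With vehicle 0 passed and with E2 0 passed, where 6.57% and 4.39% of all genes did, and 0 passed in the E2 effects and their difference. The one was Pml, scaffold of the nuclear bodies that interferon enlarges, with levels of 10.95 and 10.72, 10.74 and 10.74, 11.28 and 11.02, and 11.13 and 11.06. Pml rose by 0.33 (SE 0.08, limma adjusted p = 0.04), and its FOXL2 siRNA arrays all lay above its control arrays, as for 10.1% of all genes. By role, the mean siRNA difference had a median of 0.22 over 28 further interferon-induced genes, 0.09 over 16 further antigen presentation genes, 0.02 over 14 genes of nucleic acid sensing, -0.06 over 10 receptor and JAK-STAT genes and -0.31 over 4 interferon ligands. Interferon beta (Ifnb1) stood at 7.01, 6.46, 6.34 and 6.92 on control siRNA arrays and 5.59, 6.49, 5.67 and 6.85 on FOXL2 siRNA arrays. Its difference was -0.54 (SE 0.32, limma adjusted p = 0.343). Over the 4 ligands tested the differences ran from -1.02 to -0.06. Ifnk, one of these, stood well above background on 5 of 8 arrays. Ifna4 and Ifng, which were not tested, did so on 0 arrays. The sensor gene Zbp1 had the replicate gap seen in Mx1, at 10.72 to 11.00 on replicate 1 arrays and 8.60 to 8.93 on replicate 2 arrays.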

How the data were processed

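RNA of each culture (50 ng) was amplified, labelled with Cy3 and hybridised by the authors to a one-colour Agilent array. Per the file headers, the deposited scanner files hold spot intensity values that Agilent Feature Extraction had background-subtracted and spatially detrended, without scaling between arrays. The authors' deposited value table is in log2 units. For 98.8 to 99.0% of genes per array it matched, within 0.001, the log2 of the mean processed intensity computed here after scaling.

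Of 62976 spots, 3671 controls and all spots with outlier flags were dropped, and 55642 probes stayed in. Signals were divided by the 75th percentile of their array (275 to 367 units). On each array 51.3 to 55.6% of probes were well above background and 0 were saturated. Probes of one Entrez ID were averaged on the linear scale, and the 15637 genes with a median of at least 10 were tested with limma 3.58.1 in R 4.3.3. The fit held 4 group means over 8 arrays (4 residual degrees of freedom, intensity trend, two-sided, Benjamini-Hochberg over all genes tested, threshold 0.05), and was repeated with the slide row as a block (3 residual degrees of freedom). The number of arrays limits precision. Alternatives were normexp, quantile scaling, other filters, no trend, the brightest probe, only the groups compared, the authors' table and leaving out each array. Named genes are the members and, of 5 further pathway lists, genes past the threshold. Ifnb1, Ifnk, Ifna4, Ifng and Zbp1 were named after their values were seen. Members, gene lists and tests were chosen with earlier results of these data known. Promoters from a RefSeq table were searched with Python 3.11.15.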

Additional observations from a re-analysis of the deposited data

Results flagged for a closer look

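The E2 effect on Tap2 differed between the siRNA pools by 0.98 on the log2 scale, in the test of the difference itself. As group means of 2 arrays, Tap2 stood at 14.75 with vehicle and 14.23 with E2 under control siRNA, and at 14.19 with vehicle and 14.65 with E2 under FOXL2 siRNA. The gene rests on 1 probe, and a limma fit over probes in place of genes gave the difference an adjusted p of 0.0663. The groups with the low means held the inner slide columns, and a part of position was not tested.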

How the results depend on the processing

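With only 2 arrays per group, single arrays moved the results. Leaving out 1 array at a time, the members called ranged from 0 to 1 for the siRNA difference with vehicle, from 0 to 1 with E2, from 0 to 3 in the mean of both (Ifit3, Isg15 and Stat2 without control siRNA, vehicle replicate 1), and were 0 for both E2 effects and for the difference of E2 effects. The members' median ranged from -0.08 to 0.41 with vehicle, below 0 without replicate 2 of control siRNA with vehicle or replicate 1 of FOXL2 siRNA with vehicle. It ranged from 0.05 to 0.36 with E2 and from 0.01 to 0.26 in the mean of both, from -0.33 to 0.21 and from -0.26 to 0.22 for E2 with control and FOXL2 siRNA, and from -0.26 to 0.28 for the difference of E2 effects.

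Tap2 was the only member called with vehicle and for the difference of E2 effects in the main fit. A list without Tap2 therefore held 0 calls in both by construction, and that alternative was chosen after seeing the data. With vehicle 0 members were called without an intensity trend (Tap2 limma adjusted p = 0.0526) and with only the groups compared (0.0675). For the difference of E2 effects 0 were called without a filter (0.128), without a trend (0.191) and with the brightest probe (0.0517). With E2 1 was called under normexp (Tap2, 0.0398) and 1 under quantile scaling (Tap2, 0.0183), and in the mean of both 1 under quantile scaling (Irf9, 0.0493). No result changed sign past the threshold in these alternatives. Normexp leaves the filter of 10 without effect.

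With the replicate block, which is also the slide-row block, members called were 10 with vehicle, 14 with E2, 14 in the mean of both, 1 and 1 for E2 with control and FOXL2 siRNA, and 2 for the difference of E2 effects, with the medians unchanged. Deviations from the group means correlated by 0.33 to 0.45 over genes between groups for arrays of the same number. With 2 arrays per group this gives no independent pairs to test whether the numbers pair the cultures.

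The number of all genes called, 1027 with vehicle, 686 with E2 and 1966 in the mean of both, moved by over 1.5 times in some settings. It was 639 with vehicle and 379 with E2 without a trend, 586 with vehicle with only the groups compared, and 2934, 2329 and 4325 with the block. For E2 with control siRNA it was 3, against 15 under normexp, 1 without a filter, 1 without a trend and 182 with the block, and with FOXL2 siRNA 2, against 7, 0, 1 and 96. For the difference of E2 effects it was 38, against 9 without a filter, 15 without a trend and 332 with the block. Leaving out 1 array gave 309 to 917 with vehicle, 131 to 629 with E2, 1175 to 1878 in the mean of both, and 4 to 10 for the difference of E2 effects.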
